A study of Homo sapiens with 30 samples.

Results

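The difference between the pH response of HCT116 and that of SiHa was described gene by gene. HCT116 is an established colon carcinoma line and SiHa is an established squamous carcinoma line of the cervix. RNA was sequenced from HCT116 cells at pH 6.5, HCT116 cells at pH 7.4, SiHa cells at pH 6.5 and SiHa cells at pH 7.4. All groups shared a medium with 10% serum, 10 mM glucose, 2 mM glutamine, 25 mM HEPES and 25 mM PIPES, at 37 °C and 5% CO2, together with penicillin and streptomycin, and the cells at pH 6.5 had been held at that pH for at least 1 month. The series concerns tumour acidosis and the loss of fat tissue. The comparison used 15 of the 30 libraries of the series: replicates 1 and 3 of HCT116 at pH 6.5, replicates 1, 3, 5, 6 and 7 of HCT116 at pH 7.4, replicates 1, 4, 5, 6 and 7 of SiHa at pH 6.5, and replicates 1, 4 and 5 of SiHa at pH 7.4. Nothing in the labels tells separate cultures from repeat libraries of 1 culture, or gives the number of populations held at pH 6.5. The p-values therefore rest on a spread between libraries that may be technical.

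The 15 libraries were those left after 5 libraries of these lines were set apart, a choice made after the data were seen. The median over 28 SiHa-restricted genes was 37.5%, 101% and 104% of their level in SiHa for HCT116 pH 6.5 replicates 5, 6 and 7. SiHa pH 7.4 replicates 6 and 7 had 2820 and 2860 normalised counts of VIM, against 2.04, 28.4 and 165 in the SiHa pH 7.4 libraries kept. By line-restricted genes these replicates were SiHa. Their medians were 72% and 64.2% for SiHa-restricted genes, against 77.8% to 83.3% in the SiHa pH 7.4 libraries kept, and 0% for HCT116-restricted genes. The restricted genes were chosen from the libraries of FaDu at pH 6.5, HCT116 at pH 7.4 and SiHa at pH 6.5. Low values of another line's genes in those groups follow from that choice. Among the libraries kept, only those of HCT116 at pH 6.5 and SiHa at pH 7.4 were therefore checked. In the HCT116 libraries kept, the library median over SiHa-restricted genes was at most 0.0465% and that over 24 FaDu-restricted genes at most 0.0303% of their own level, and in the SiHa libraries kept the median over 33 HCT116-restricted genes was 0%. Single genes stood above these medians, such as KRT5, restricted to FaDu by that measure, with 721 and 897 normalised counts in HCT116 at pH 6.5, against 8.60 to 41.0 in HCT116 at pH 7.4. The colon transcription factor CDX2 was at 821 to 1030 normalised counts in HCT116 at pH 6.5, at 700 to 918 in HCT116 at pH 7.4 and at 0 in SiHa. CDX2 is itself one of the 33 HCT116-restricted genes. Its values in HCT116 at pH 7.4 and SiHa at pH 6.5 therefore follow from that choice. CDX1 was at 0 in HCT116. Of the 10 colon markers, 3 had a mean of at least 10 in HCT116 at pH 6.5 and 5 in HCT116 at pH 7.4. In SiHa 2 did at pH 6.5 and 3 at pH 7.4. The colon marker TSPAN8 went the other way, with at most 6.10 in HCT116 and 7.69 to 262 in SiHa. Summed squamous markers were at 15197 to 77071 in SiHa at pH 6.5 and at 53891 to 61674 in SiHa at pH 7.4. The sum was mostly KRT17, at 14804 to 74799 in SiHa at pH 6.5 and 52675 to 60346 in SiHa at pH 7.4. Of the 10 squamous markers, 6 had a mean of at least 10 in SiHa at either pH. KRT13 was at 0 in SiHa, DSC3 at or under 5.68 and DSG3 at or under 6.63. The libraries held 25.3 to 44 M reads and 26270 to 29182 detected genes each, and the upper limit behind a gene with no read, 3 reads, lay at 2.56 to 4.20 normalised counts. In bulk samples fewer cells of a type and less RNA per cell cannot be told apart. Such limits and intervals cover counting error only, because PCR copies were not marked.

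Acid medium is a feature of poorly perfused tumour regions, and cells that persist in it export protons and change their use of fuel. Interferon-stimulated genes are antiviral genes switched on by transcription factors such as STAT2 and IRF9, which bind a DNA element called the interferon-stimulated response element. The p53 targets restrain division or repair DNA, and sterol genes are driven by SREBF2 when cells run short of cholesterol.

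For each gene the pH effect in a line is the log2 change of pH 6.5 over pH 7.4 on the scale log2(normalised count + 1), and the interaction is the HCT116 effect minus the SiHa effect. On this scale the changes of low genes are understated. All adjusted p-values are 2-sided, come from limma and were adjusted by the Benjamini-Hochberg method over the 20927 genes tested, which had a mean of at least 10 in the highest group. A difference was called at an adjusted p under 0.05. The interaction was called for 5246 genes, or 25.1% of those tested, with 2670 higher in HCT116 (12.8%) and 2576 lower in HCT116 (12.3%). Here and below, counts of genes higher or lower in HCT116 are of called interactions and not of expression levels. Over all genes tested the median was 0.02 for the interaction and -0.01 for the effect in either line. Without HCT116 pH 6.5 replicate 1 the number higher in HCT116 was 1777.

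Among the 5246 genes, both lines changed in opposite directions in 501 (2.39% of genes tested), both changed in the same direction by different amounts in 130, HCT116 alone passed the test in 1949, SiHa alone passed it in 2141, and neither line alone passed it in 525. The pH effect was called for 21% of genes tested in HCT116 and 26.9% in SiHa, and of the 1292 called in both lines 791 had the same sign and 501 opposite signs. The opposite genes comprised 270 that rose in HCT116 and fell in SiHa (1.29% of genes tested) and 231 that fell in HCT116 and rose in SiHa (1.1%). A gene was classed as changed in 1 line only when its effect there passed the test with a size of at least 1 on the log2 scale, its effect in the other line did not pass and was under 0.5 in size with a 95% interval inside ±1, and the interaction passed. This gave 318 genes that rose only in HCT116 (1.52%), 328 that fell only in HCT116 (1.57%), 151 that rose only in SiHa (0.722%) and 218 that fell only in SiHa (1.04%), so that 646 changed only in HCT116 (3.09%) and 369 only in SiHa (1.76%). The 270 became 155 without HCT116 pH 6.5 replicate 1, 153 without SiHa pH 7.4 replicate 1 and 172 without SiHa pH 7.4 replicate 5, and the 231 became 142 without SiHa pH 7.4 replicate 5. The 151 became 79 and 80, and the 218 became 99 and 128, without HCT116 pH 6.5 replicate 1 and without replicate 3.

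**Figure D1:**
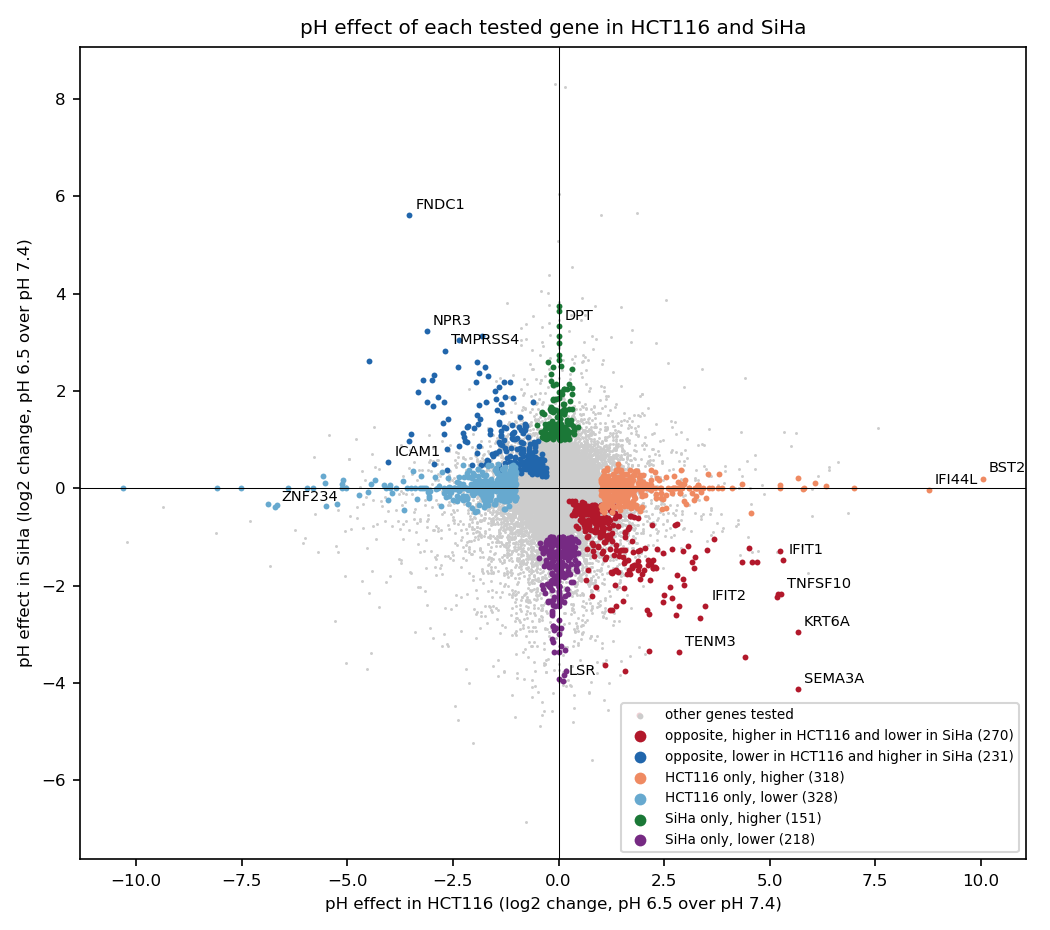
Log2 change of pH 6.5 over pH 7.4 in HCT116 (x axis) against that in SiHa (y axis) for the 20927 genes tested, 1 point per gene, coloured by class with the number of genes in the legend. The 270 and 231 opposite genes lie at the lower right and upper left by construction, and the genes changed in 1 line lie along the axes.

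The opposite changes moved many genes across the other line's level. Of the 270 genes that rose in HCT116 and fell in SiHa, HCT116 was above SiHa for 213 at pH 6.5 and for 81 at pH 7.4, and 132 changed order. Of the 231 in the other direction, HCT116 was above SiHa for 56 at pH 6.5 and for 168 at pH 7.4, and 112 changed order. The pH groups did not overlap in either line for 235 of the 270 and 190 of the 231, while 11.4% of all genes tested showed no overlap in both lines. The classes used the same fit, so these shares describe the members.

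The interferon response had the largest share of members with a called interaction among the 30 function lists, 95.6% against 25.1% of all genes tested. Of its 45 tested genes, out of 46 listed, the interaction was higher in HCT116 for 42 and lower for 1, against 12.8% and 12.3% of all genes tested. In HCT116, 44 rose and 1 fell at pH 6.5, where 10.2% and 10.8% of all genes did, and in SiHa 4 rose and 9 fell, where 12.3% and 14.6% of all genes did. The median effect of the list was 3.01 in HCT116 and -0.04 in SiHa, and the median interaction was 3.33. The pH groups did not overlap for 45 of the 45 genes in HCT116 and for 20 in SiHa, against 33.7% and 32.4% of all genes tested. HCT116 was above SiHa for 35 of the 45 genes at pH 6.5 and for 6 at pH 7.4. The number higher was 41 to 43 when any 1 library was left out, and 39 were higher with all 20 libraries as labelled.

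The promoters of 3 opposite genes and 3 genes changed in HCT116 only are shown because they hold GAAA, any 2 bases and GAAA again, a simplified form of the interferon-stimulated response element, within 250 bases before the start of the gene. Matches on either strand are in capitals and overlapping matches run together. Sequences are from RefSeq on GRCh38.p14, 5′ to 3′ on the strand of the gene.
IFIT1, chr10:89392487-89392549, plus strand: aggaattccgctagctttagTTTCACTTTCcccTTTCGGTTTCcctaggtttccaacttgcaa
IFIT3, chr10:89327821-89327904, plus strand: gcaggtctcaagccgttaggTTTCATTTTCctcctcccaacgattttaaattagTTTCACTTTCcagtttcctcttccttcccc
ISG15, chr1:1013364-1013419, plus strand: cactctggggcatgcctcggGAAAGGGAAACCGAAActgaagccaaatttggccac
BST2, chr19:17405725-17405780, minus strand: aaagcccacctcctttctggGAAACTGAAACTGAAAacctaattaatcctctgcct
IFI44L, chr1:78620264-78620404, plus strand: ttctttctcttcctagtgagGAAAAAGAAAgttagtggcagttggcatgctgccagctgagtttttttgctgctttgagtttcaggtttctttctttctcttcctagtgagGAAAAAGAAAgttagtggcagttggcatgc
IFI6, chr1:27672256-27672368, minus strand: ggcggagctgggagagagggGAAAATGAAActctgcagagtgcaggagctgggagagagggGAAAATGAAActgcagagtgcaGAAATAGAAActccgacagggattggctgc

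A promoter was matched by symbol for 12914 of the genes tested, and 311 of these (2.41%) held the element. It was present in 17 of 35 matched interferon genes (48.6%), in 21 of 195 genes that rose only in HCT116 (10.8%), in 11 of 188 that rose in HCT116 and fell in SiHa (5.85%) and in 2 of 162 that fell in HCT116 and rose in SiHa (1.23%). It was present in 7 of 208 genes that fell only in HCT116 (3.37%), in 1 of 151 that fell only in SiHa (0.662%) and in 0 of 99 that rose only in SiHa. These sets overlap with the interferon list. Its members IFIT1, IFIT3, IFIT5, ISG15, IFIH1 and SAMD9 are among the 11 opposite genes with the element. BST2, IFI44L and IFI6 are among the 21 that rose only in HCT116. The shares without the interferon list were not computed. The E-box CACGTG stood in 8.53% of all promoters, and in 8.51% and 9.88% of the opposite classes. The cyclic AMP response element TGACGTCA stood in 2.72% of all promoters, and in 1.6% and 3.09% of those classes. The amino acid response element TGATGCAA stood in 0.41% of all promoters and in none of the 188 and 162 opposite ones. A match describes these letters in this window and is not evidence that a factor binds there.

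Among the opposite interferon genes were the IFIT genes, which encode proteins that bind foreign RNA. IFIT1 had 14655 and 8019 normalised counts in HCT116 at pH 6.5, against 370, 464, 224, 144 and 276 in HCT116 at pH 7.4. In SiHa it had 704, 358, 769, 615 and 272 at pH 6.5, against 1735, 1077 and 1446 at pH 7.4. No pH 6.5 library of either line overlapped the pH 7.4 libraries of that line, and the effect was 5.31 ± 0.42 (SE) in HCT116 and -1.47 ± 0.37 in SiHa. The interaction of IFIT1 was 6.77 ± 0.56 (adjusted p = 3.66e-07), although the fall in SiHa was no longer called with all 20 libraries as labelled or with replicate 1 as the only SiHa pH 7.4 library. IFIT2 had 2116 and 1006 normalised counts in HCT116 at pH 6.5, against 160, 211, 96.7, 88.4 and 132 in HCT116 at pH 7.4. In SiHa it had 216, 118, 294, 286 and 99.9 at pH 6.5, against 1227, 792 and 995 at pH 7.4. Thus at pH 6.5 HCT116 held the higher level of IFIT2 and at pH 7.4 SiHa did, and the interaction was 5.89 ± 0.56 (adjusted p = 1.91e-06). IFIT3 had an effect of 4.59 ± 0.35 in HCT116 and -1.52 ± 0.30 in SiHa. The opposite calls of IFIT2 and IFIT3 held under every alternative run, including each library left out.

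The other opposite members were the ubiquitin-like modifier ISG15, the antiviral gene OASL, the RNA sensors RIGI and IFIH1, IFIT5 and SAMD9, which were named after their values were seen. ISG15 had 33286 and 16410 normalised counts in HCT116 at pH 6.5, against 1488 to 2491 in HCT116 at pH 7.4, and 737 to 1593 in SiHa at pH 6.5, against 1955 to 3048 in SiHa at pH 7.4. Its effect was 3.69 ± 0.30 in HCT116 and -1.05 ± 0.26 in SiHa. OASL had effects of 2.80 ± 0.40 and -1.79 ± 0.35, IFIH1 of 2.76 and -0.76, RIGI of 1.72 and -0.57, IFIT5 of 1.68 and -0.57, and SAMD9 of 1.58 and -1.5, with HCT116 first in each pair. The rise of SAMD9 in HCT116 was not called without HCT116 pH 6.5 replicate 1. GBP2, a GTPase of the guanylate-binding family, went the other way, with 81.3 and 84.4 normalised counts in HCT116 at pH 6.5, against 159 to 258 in HCT116 at pH 7.4, and 3802 to 6936 in SiHa at pH 6.5, against 2023 to 3027 in SiHa at pH 7.4. Its interaction was -2.28 ± 0.30, and it was 1.08 with all 20 libraries as labelled.

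A further 20 interferon genes changed in HCT116 only. BST2, which tethers budding virus particles to the cell surface, had 10629 and 10312 normalised counts in HCT116 at pH 6.5, against 8.47, 15.7, 8.05, 4.91 and 10.3 in HCT116 at pH 7.4. In SiHa it had 9876 to 14271 at pH 6.5, against 9933 to 11398 at pH 7.4. HCT116 cells at pH 6.5 thus held BST2 at the level that SiHa cells held at either pH, and the interaction was 9.84 ± 0.34 (adjusted p = 1.6e-11). IFI44L had 609 and 307 normalised counts in HCT116 at pH 6.5 and no read in any of the 5 HCT116 libraries at pH 7.4, at least 124-fold higher at pH 6.5 against a limit of 3 reads per library. In SiHa IFI44L had 187 to 873 at pH 6.5, against 399 to 644 at pH 7.4, an effect of -0.04 ± 0.40. IFI6, which limits cell death during infection, rose by 6.06 ± 0.28 in HCT116, with an effect of 0.1 ± 0.24 in SiHa. OAS1, which makes the messenger that activates RNase L, rose by 4.55 ± 0.26 in HCT116, with an effect of -0.5 ± 0.23 in SiHa. PARP10, an ADP-ribosyltransferase, rose by 5.68 ± 0.24 in HCT116, with an effect of 0.22 ± 0.21 in SiHa. SAMD9L was outside that class, since its effect in SiHa was -1.19 ± 0.61 (adjusted p = 0.162). It had an interaction of 6.96 ± 0.92, with 114 normalised counts on average in HCT116 at pH 6.5 and 1.89 in HCT116 at pH 7.4, and 228 in SiHa at pH 6.5 and 477 in SiHa at pH 7.4.

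Transcription factors of this response were among the list. IRF7 had 3166 and 2189 normalised counts in HCT116 at pH 6.5, against 184 to 315 in HCT116 at pH 7.4, with an effect of 3.54 ± 0.21 in HCT116 and 0.29 ± 0.18 in SiHa. IRF9 had an interaction of 1.66 ± 0.43, which was not called without HCT116 pH 6.5 replicate 3. The interaction was not called for TRIM22 (1.41, adjusted p = 0.0948) and ISG20 (1.10, adjusted p = 0.0653).

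**Figure D2:**
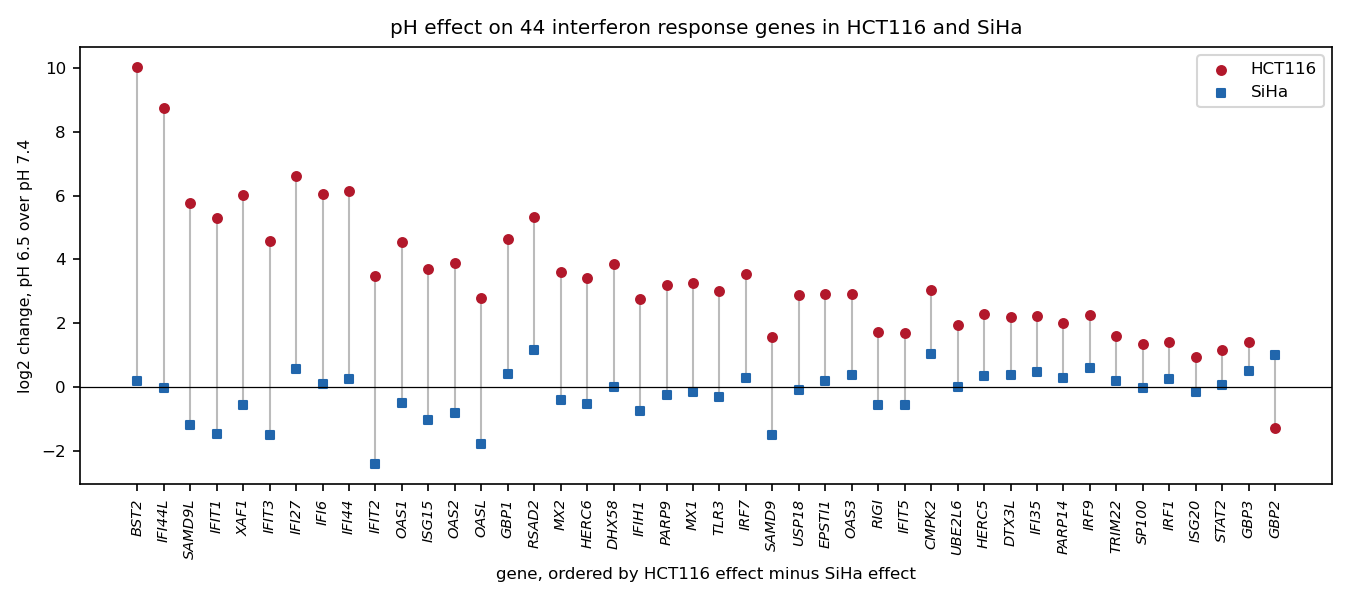
Log2 change of pH 6.5 over pH 7.4 in HCT116 (circles) and SiHa (squares) for 44 of the 45 tested interferon response genes, ordered by the interaction from left to right. HCT116 lies above SiHa for each gene shown but GBP2, and the median of the 45 was 3.01 in HCT116 and -0.04 in SiHa.

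Antigen presentation by MHC class I, which interferon also controls, rose in both lines. Of 22 genes, 16 rose and 0 fell in HCT116, where 10.2% and 10.8% of all genes tested did. In SiHa 14 rose and 0 fell, where 12.3% and 14.6% did. The interaction was higher in HCT116 for 8 and lower for 0, against 12.8% and 12.3% of all genes tested. The immunoproteasome subunit PSMB9 had 1581 and 697 normalised counts in HCT116 at pH 6.5, against 31.2 to 72.2 in HCT116 at pH 7.4, and 1251 to 1686 in SiHa at pH 6.5, against 602 to 697 in SiHa at pH 7.4, with effects of 4.32 ± 0.31 in HCT116 and 1.16 ± 0.27 in SiHa. PSMB10, another such subunit, had effects of 2.37 and 0.68, and HLA-F had effects of 2.02 and 0.80, with HCT116 first in each pair. NLRC5, an activator of these genes, rose in HCT116 only, with effects of 1.5 in HCT116 and 0.21 in SiHa. The number lower was 2 without HCT116 pH 7.4 replicate 1 and 1 without SiHa pH 6.5 replicate 6 or SiHa pH 7.4 replicate 4. Without HCT116 pH 6.5 replicate 1 the interaction was higher for 4 members, HLA-F no longer among the called, and reads of the near-identical HLA genes may be split between them.

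Outside the interferon list, the opposite genes with the largest interactions included secreted and membrane proteins. SEMA3A, a secreted semaphorin that repels axons and acts on vessels, had 4888 and 11169 normalised counts in HCT116 at pH 6.5, against 114, 127, 157, 147 and 187 in HCT116 at pH 7.4. In SiHa it had 0, 1.40, 0, 0 and 0 at pH 6.5, against 15.3, 19.9 and 25.9 at pH 7.4. The groups did not overlap in either line, and the effect was 5.67 ± 0.39 in HCT116 and -4.13 ± 0.34 in SiHa, where the ratio of pH 7.4 over pH 6.5 was 99.9 with a counting interval of 17.9 to 3950 because SiHa at pH 6.5 held 1 read. The interaction of SEMA3A was 9.80 ± 0.52 (adjusted p = 3.22e-09), and its opposite calls held under every alternative run. TNFSF10, which encodes the death ligand TRAIL, had 95 and 151 normalised counts in HCT116 at pH 6.5, against 6.36, 8.71, 1.01, 0 and 1.15 in HCT116 at pH 7.4. In SiHa it had 354, 143, 264, 113 and 74.3 at pH 6.5, against 770, 555 and 926 at pH 7.4, and this fall of -2.17 ± 0.62 was not called without SiHa pH 7.4 replicate 1 or 5. STC1, a secreted glycoprotein hormone, had 474 and 143 normalised counts in HCT116 at pH 6.5, against 1.74 to 9.83 in HCT116 at pH 7.4, and 14.5 to 310 in SiHa at pH 6.5, against 508 to 632 in SiHa at pH 7.4. Its rise of 5.17 ± 0.85 in HCT116 held under each alternative, while its fall of -2.23 ± 0.74 in SiHa was lost when any of 4 SiHa libraries was left out and was -1.49 without SiHa pH 6.5 replicate 7.

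TENM3, a teneurin that joins cells across synapses, had 749 and 348 normalised counts in HCT116 at pH 6.5, against 53.2 to 109 in HCT116 at pH 7.4, and 2.56 to 11.2 in SiHa at pH 6.5, against 63.1 to 109 in SiHa at pH 7.4. At pH 7.4 the lines overlapped in TENM3, and at pH 6.5 they did not. NTNG2, a netrin tethered to the membrane, had an effect of 2.13 ± 0.60 in HCT116, which was not called without either HCT116 pH 6.5 library, and of -3.34 ± 0.52 in SiHa. DGKB, a diacylglycerol kinase, had an effect of 4.69 ± 0.56 in HCT116 and -1.52 ± 0.49 in SiHa, where it stayed at or under 13.2 normalised counts and the fall was lost when any of 4 SiHa libraries was left out. LRG1, a secreted glycoprotein, had effects of 2.78 ± 0.47 and -2.60 ± 0.41, and DHRS2, a mitochondrial reductase, of 2.69 ± 0.61 and -2.26 ± 0.54, with HCT116 first in each pair. The growth factor gene PDGFA had 1681 and 1232 normalised counts in HCT116 at pH 6.5, against 495 to 959 in HCT116 at pH 7.4, and 758 to 1383 in SiHa at pH 6.5, against 1607 to 2039 in SiHa at pH 7.4. The rises of DHRS2 and PDGFA in HCT116 were not called without HCT116 pH 6.5 replicate 1, where that of DHRS2 was 1.39, and the fall of PDGFA in SiHa was not called without SiHa pH 7.4 replicate 1.

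**Figure D3:**
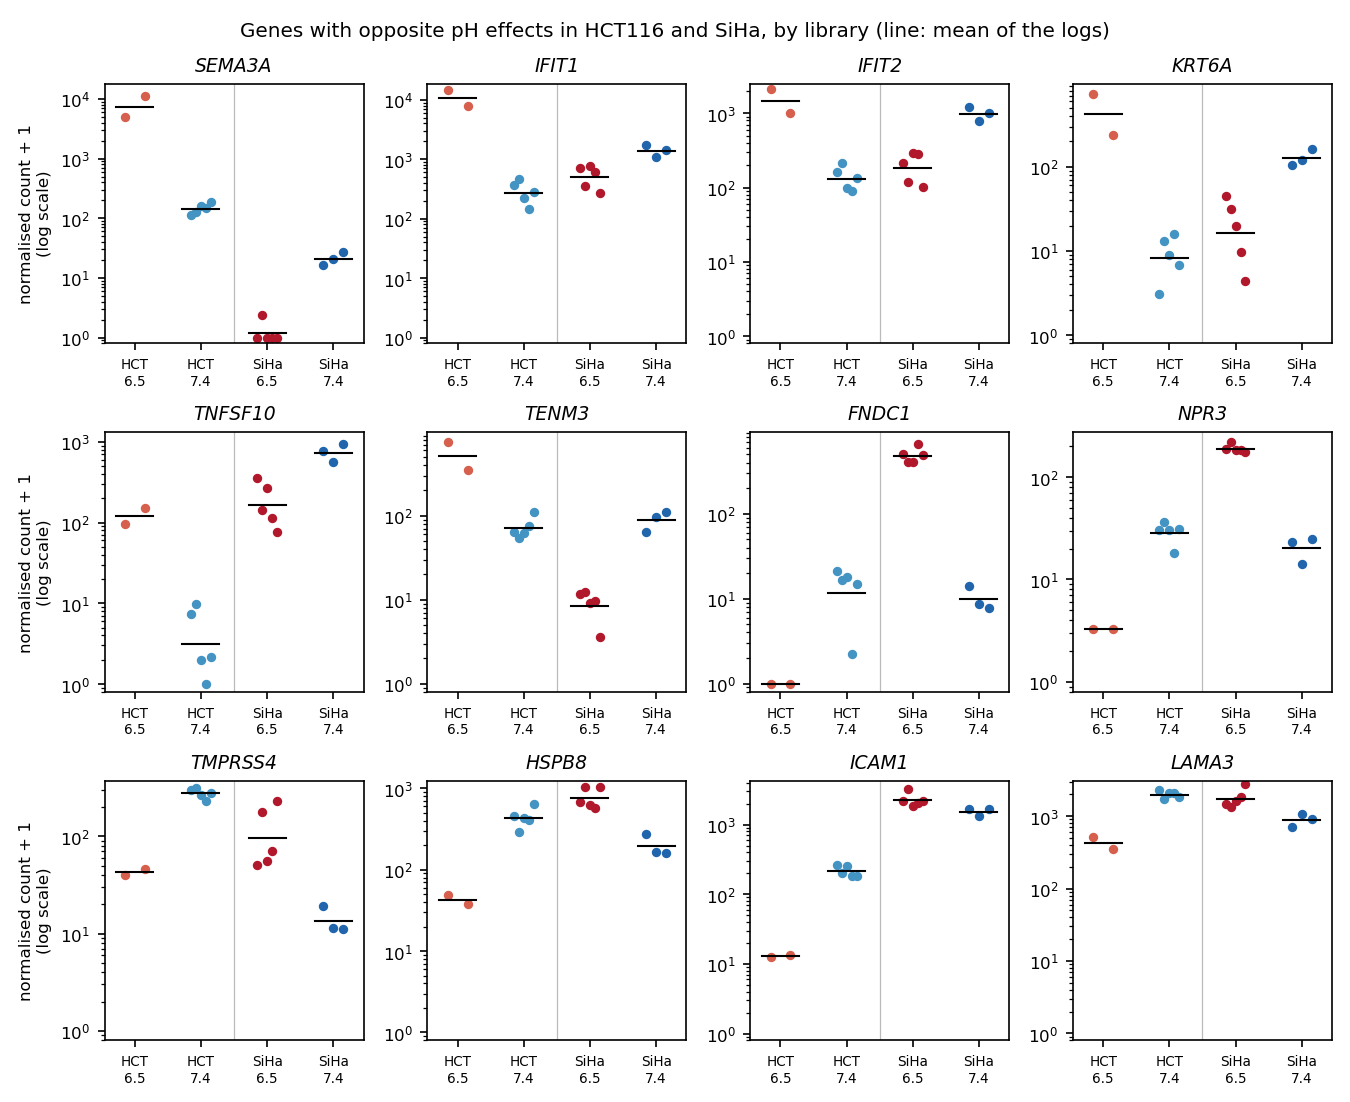
Normalised counts plus 1 (log scale) by library for 12 genes with opposite pH effects, in HCT116 at pH 6.5 (n = 2), HCT116 at pH 7.4 (n = 5), SiHa at pH 6.5 (n = 5) and SiHa at pH 7.4 (n = 3), with a line at the mean of the logs. The first 6 panels are higher at pH 6.5 in HCT116 and lower in SiHa, and the last 6 run the other way.

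Genes that fell in HCT116 and rose in SiHa included receptors, a surface protease and an adhesion molecule. FNDC1, a fibronectin domain protein, had 0 reads in both HCT116 libraries at pH 6.5, against 20.1, 15.7, 17.1, 1.23 and 13.8 normalised counts in HCT116 at pH 7.4, at least 3.96-fold lower. In SiHa FNDC1 had 501, 402, 406, 655 and 488 at pH 6.5, against 13.2, 7.58 and 6.77 at pH 7.4, an effect of 5.62 ± 0.54. NPR3, the clearance receptor of natriuretic peptides, had 2.29 and 2.28 normalised counts in HCT116 at pH 6.5, against 17.2 to 35.7 in HCT116 at pH 7.4, and 173 to 220 in SiHa at pH 6.5, against 13.3 to 23.7 in SiHa at pH 7.4. Levels of NPR3 in the lines overlapped at pH 7.4 and stood far apart at pH 6.5, and the interaction was -6.35 ± 0.39 (adjusted p = 1.29e-08). TMPRSS4, a serine protease of the cell surface, had 38.9 and 45.6 normalised counts in HCT116 at pH 6.5, against 231 to 313 in HCT116 at pH 7.4, and 49.9 to 230 in SiHa at pH 6.5, against 10.2 to 18.3 in SiHa at pH 7.4. The opposite calls of TMPRSS4 held under every alternative run.

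ICAM1, which binds leukocyte integrins, had 11.5 and 12.6 normalised counts in HCT116 at pH 6.5, against 181 to 263 in HCT116 at pH 7.4, a change of -4.04 ± 0.20. In SiHa ICAM1 had 1861 to 3194 at pH 6.5, against 1308 to 1672 at pH 7.4, and this rise of 0.54 ± 0.18 was lost when any of 4 SiHa libraries was left out. TNFRSF1B, a receptor of tumour necrosis factor, had effects of -2.38 ± 0.35 in HCT116 and 2.49 ± 0.31 in SiHa. The small heat shock gene HSPB8 had 48.1 and 36.5 normalised counts in HCT116 at pH 6.5, against 287 to 637 in HCT116 at pH 7.4, and 570 to 1038 in SiHa at pH 6.5, against 160 to 271 in SiHa at pH 7.4. MAP2K6, a kinase that activates p38, had effects of -2.85 ± 0.44 and 1.87 ± 0.38, the Wnt receptor FZD8 of -2.73 ± 0.32 and 1.34 ± 0.28, and the chemokine gene CCL26 of -2.98 ± 0.52 and 1.69 ± 0.46, with HCT116 first in each pair. The rise of CCL26 in SiHa was not called without SiHa pH 7.4 replicate 1. RASEF, a Rab GTPase, had effects of -3.49 ± 0.30 and 1.11 ± 0.27, and ADAMTSL3, a matrix protein, of -1.66 ± 0.41 and 2.30 ± 0.35, with HCT116 first. The fall of ADAMTSL3 in HCT116 rested on 1 read at pH 6.5 and 18 reads at pH 7.4 and was not called without HCT116 pH 6.5 replicate 3. HAGLR, a noncoding RNA of the HOXD cluster, had effects of -3.12 ± 0.53 (-1.75 without HCT116 pH 6.5 replicate 3) and 1.77 ± 0.46, and reads of its neighbours on the other strand cannot be told apart from its own where counting ignored strand.

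Cell cycle genes rose in SiHa. Of 60 genes, the interaction was lower in HCT116 for 28 and higher for 1, the weakly expressed cyclin gene CCND2, whose call was lost when any of 8 libraries was left out. Of all genes tested, the interaction was lower for 12.3% and higher for 12.8%. In HCT116 2 rose and 1 fell at pH 6.5, where 10.2% and 10.8% of all genes tested did, and in SiHa 41 rose and 0 fell, where 12.3% and 14.6% did, with median effects of -0.02 in HCT116 and 0.67 in SiHa. TOP2A, the topoisomerase of dividing cells, had 4932 and 7108 normalised counts in HCT116 at pH 6.5, against 4681 to 8002 in HCT116 at pH 7.4, and 14650 to 21394 in SiHa at pH 6.5, against 5430 to 12445 in SiHa at pH 7.4. The mitotic kinase genes BUB1B and AURKA had interactions of -1.57 ± 0.31 and -1.38 ± 0.28, and KIF20A, a mitotic kinesin, of -1.31 ± 0.24. FOXM1, which drives mitotic genes, was the opposite member, with 2031 and 1471 normalised counts in HCT116 at pH 6.5, against 2254 to 3257 in HCT116 at pH 7.4, and 3674 to 4440 in SiHa at pH 6.5, against 1913 to 3043 in SiHa at pH 7.4. The interaction of TOP2A was not called without HCT116 pH 6.5 replicate 1, and the fall of FOXM1 in HCT116 was -0.33 and not called without HCT116 pH 6.5 replicate 3. The number of lower members was 14 without HCT116 pH 6.5 replicate 3, 16 without SiHa pH 7.4 replicate 1 and 7 with all 20 libraries as labelled. It was also 7 with a replicate block, a term for each replicate number within a line, where 1268 of 20927 genes tested were lower.

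Targets of p53 fell in SiHa. Of 32 genes, the interaction was higher in HCT116 for 15 and lower for 1, against 12.8% and 12.3% of all genes tested. In HCT116 8 rose and 1 fell, where 10.2% and 10.8% of all genes did. In SiHa 0 rose and 20 fell, where 12.3% and 14.6% did. The medians were 0.27 in HCT116 and -0.57 in SiHa. Opposite members were the quinone reductase TP53I3, the death receptor FAS, the ferredoxin reductase FDXR, the DNA damage sensor DDB2 and the adhesion gene NINJ1. TP53I3 had 977 and 1012 normalised counts in HCT116 at pH 6.5, against 377 to 630 in HCT116 at pH 7.4, and 235 to 695 in SiHa at pH 6.5, against 1085 to 1607 in SiHa at pH 7.4. FAS had effects of 0.63 in HCT116 and -0.88 in SiHa, FDXR of 0.84 and -0.56, DDB2 of 0.65 and -0.71, and NINJ1 of 0.59 and -0.67. The rise of each of these 5 genes in HCT116 was not called without HCT116 pH 6.5 replicate 1, and the falls of FDXR, DDB2 and NINJ1 in SiHa not without SiHa pH 7.4 replicate 1, where that of FDXR was -0.36. CDKN1A, the inhibitor of cyclin-dependent kinases, had an effect of 1.04 in HCT116 (adjusted p = 0.127) and -1.41 in SiHa (adjusted p = 0.0166, and -0.94 without SiHa pH 7.4 replicate 1, where it was not called), and an interaction of 2.44 ± 0.62 that was not called without HCT116 pH 6.5 replicate 1. SPATA18, which acts on damaged mitochondria, fell in both lines, with an interaction of -2.56 ± 0.47. The interaction was higher in HCT116 for 9 of the list without HCT116 pH 6.5 replicate 1.

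Of 56 respiratory chain genes of the nucleus, the interaction was higher in HCT116 for 19 and lower for 0, against 12.8% and 12.3% of all genes tested. In HCT116 14 rose and 0 fell, where 10.2% and 10.8% of all genes did. In SiHa 3 rose and 11 fell, where 12.3% and 14.6% did. The medians were 0.18 in HCT116 and -0.1 in SiHa. ATP5MC1, a subunit of the ATP synthase, had 4647 and 3262 normalised counts in HCT116 at pH 6.5, against 1148 to 1683 in HCT116 at pH 7.4, and 2077 to 2541 in SiHa at pH 6.5, against 2407 to 2715 in SiHa at pH 7.4. NDUFC2, of complex I, had effects of 1.09 in HCT116 and -0.28 in SiHa, and the opposite complex IV genes COX6B1 and COX5B had effects of 0.5 and 0.39 in HCT116 and -0.39 and -0.44 in SiHa. The count of lower members was 1 without HCT116 pH 7.4 replicate 1. The count of higher members was 6 without HCT116 pH 6.5 replicate 1, where 1777 of 21068 genes tested were higher. In that fit the effects of COX6B1 and COX5B in HCT116 were 0.27 and 0.19 and were not called. With the replicate block 3 members were higher, where 1193 of 20927 genes tested were. With all 20 libraries as labelled, 8 were higher and 1 lower.

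Lipid genes were read in 3 lists. Of 38 genes of fatty acid and cholesterol synthesis, the interaction was lower in HCT116 for 14 and higher for 1, the sterol reductase TM7SF2, with medians of -0.6 in HCT116 and 0.32 in SiHa. Of all genes tested, the interaction was lower for 12.3% and higher for 12.8%. FDPS, which makes farnesyl diphosphate, had 2935 and 2813 normalised counts in HCT116 at pH 6.5, against 3025 to 8744 in HCT116 at pH 7.4, and 4343 to 7201 in SiHa at pH 6.5, against 2968 to 3183 in SiHa at pH 7.4. SREBF2, the transcription factor of sterol synthesis, had effects of -0.39 in HCT116 and 0.61 in SiHa, and CYP51A1, which demethylates lanosterol, of -1.04 and 0.63. FASN, the fatty acid synthase, had 74678 and 49226 normalised counts in HCT116 at pH 6.5, against 111238 to 169215 in HCT116 at pH 7.4, with an effect of -1.1 ± 0.20 in HCT116 and -0.1 ± 0.17 in SiHa. LSS, the lanosterol synthase, had effects of -1.14 and 0.38. The count of higher members was 2 without SiHa pH 7.4 replicate 5, and that of lower members was 8 without either HCT116 pH 6.5 library and 22 without HCT116 pH 7.4 replicate 1. With the replicate block 4 members were lower, where 1268 of 20927 genes tested were. The falls of FDPS, SREBF2 and CYP51A1 in HCT116 were not called without either HCT116 pH 6.5 library, nor the interaction of FASN without HCT116 pH 6.5 replicate 3.

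Of 33 genes of fatty acid uptake, activation and droplets, the interaction was lower in HCT116 for 9 and higher for 3. The shares over all genes tested were 12.3% and 12.8%. ACSL1, which activates long fatty acids, had 1209 and 1009 normalised counts in HCT116 at pH 6.5, against 3788 to 5406 in HCT116 at pH 7.4, and 981 to 1328 in SiHa at pH 6.5, against 846 to 857 in SiHa at pH 7.4. LPIN2, a phosphatidate phosphatase, had effects of -1.07 in HCT116 and 1.13 in SiHa, and the lipase gene PNPLA3 of -0.98 and 1.04. CIDEC, a droplet protein, was opposite with at most 11.6 normalised counts on average in any group. Of 32 genes of fatty acid oxidation, the interaction was higher in HCT116 for 8 and lower for 3, against 12.8% and 12.3% of all genes tested. CPT1C and the peroxisomal thiolase ACAA1 rose in HCT116 and fell in SiHa, with effects of 1.73 and 0.53 in HCT116 and -1.64 and -0.63 in SiHa, and PPARD, a fatty acid receptor of the nucleus, had effects of -1.05 and 0.55. Without HCT116 pH 6.5 replicate 1, 4 oxidation genes were higher in HCT116 and the changes of CPT1C, ACAA1 and PNPLA3 in HCT116 were not called, that of PNPLA3 being -0.46, and without SiHa pH 7.4 replicate 5, 5 were higher. Higher genes of uptake and droplets numbered 1 without HCT116 pH 6.5 replicate 1, and lower oxidation genes 1 without replicate 3.

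Of 44 keratin and squamous differentiation genes, the interaction was higher in HCT116 for 16 and lower for 3, against 12.8% and 12.3% of all genes tested. In HCT116 11 rose and 11 fell, where 10.2% and 10.8% of all genes did. In SiHa 2 rose and 22 fell, where 12.3% and 14.6% did. The medians were -0.2 in HCT116 and -0.99 in SiHa. KRT6A, a keratin of activated keratinocytes, had 730 and 240 normalised counts in HCT116 at pH 6.5, against 2.12, 12.2, 8.05, 14.7 and 5.73 in HCT116 at pH 7.4. In SiHa KRT6A had 44.5, 30.8, 18.8, 8.62 and 3.42 at pH 6.5, against 104, 120 and 161 at pH 7.4. The groups of KRT6A did not overlap in either line, and the interaction was 8.61 ± 0.99 (adjusted p = 1.48e-05). KRT4 had 2219 and 594 normalised counts in HCT116 at pH 6.5, against 6.14 to 36.6 in HCT116 at pH 7.4, with an effect of -1.73 in SiHa (adjusted p = 0.0765). KRT14, a basal keratin, had an effect of 4.26 in HCT116, and KRT16 had effects of 2.63 in HCT116 and -2.02 in SiHa. KRT5 and SERPINB2 were opposite as well, with interactions of 6.53 ± 0.70 and 6.02 ± 0.89. KRT5 was among the FaDu-restricted genes, so its low values in HCT116 at pH 7.4 and SiHa at pH 6.5 follow from that choice. SERPINB2 had 32.1 and 6.84 normalised counts in HCT116 at pH 6.5, and was not tested without replicate 1. Its SiHa libraries held 1 read at pH 6.5 and 21 at pH 7.4. KRT7 fell by 4.76 in HCT116, to 135 normalised counts on average at pH 6.5, against 3091 at pH 7.4. The sum of 10 squamous markers, which contains KRT5, KRT6A and KRT14 themselves, was 3381 to 6001 in HCT116 at pH 6.5 and 812 to 1674 in HCT116 at pH 7.4. Of its other members KRT13 had 3173 and 1155 normalised counts in HCT116 at pH 6.5, against 194 to 894 in HCT116 at pH 7.4, and the desmosomal cadherin DSC3 had 570 and 252 at pH 6.5, against 560 to 686 at pH 7.4. In the same libraries the squamous cadherin DSG3 stood at 19.5 and 3.42 at pH 6.5 and at or under 6.87 at pH 7.4, TP63 at or under 7.41 in each and SERPINB3 at 0. The rise of KRT16 in HCT116 was not called without HCT116 pH 6.5 replicate 1, and the falls of KRT6A and KRT16 in SiHa not with replicate 1 as the only SiHa pH 7.4 library. Near-identical keratin genes may share reads, the fall of KRT5 in SiHa was lost when any of 12 libraries was left out, and the count of higher members was 10 without HCT116 pH 6.5 replicate 1 and that of lower members 5 without SiHa pH 7.4 replicate 4.

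Of 35 genes of epithelial-mesenchymal transition and cadherins, the interaction was higher in HCT116 for 15 and lower for 3, against 12.8% and 12.3% of all genes tested. In HCT116 3 rose and 5 fell, where 10.2% and 10.8% of all genes did. In SiHa 4 rose and 19 fell, where 12.3% and 14.6% did. The medians were -0.29 in HCT116 and -0.93 in SiHa. E-cadherin, CDH1, had 2711 and 1996 normalised counts in HCT116 at pH 6.5, against 3229 to 4515 in HCT116 at pH 7.4, and 133 to 232 in SiHa at pH 6.5, against 1373 to 1772 in SiHa at pH 7.4. Its effect was -0.62 ± 0.20 in HCT116, -0.40 and not called without HCT116 pH 6.5 replicate 3, and -3.23 ± 0.18 in SiHa. The polarity gene CRB3 had effects of -0.16 and -4.57, the epithelial transcription factor OVOL2 of 0.16 and -3.32, and the protease ST14 of -0.29 and -3.52, with HCT116 first. FN1, fibronectin, was opposite, with 690 and 659 normalised counts in HCT116 at pH 6.5, against 753 to 1370 in HCT116 at pH 7.4, and 1877 to 2749 in SiHa at pH 6.5, against 639 to 760 in SiHa at pH 7.4, and its fall in HCT116 was not called without either HCT116 pH 6.5 library. TCF4, a mesenchymal transcription factor, had at most 2.61 normalised counts in HCT116, and 613 to 1054 in SiHa at pH 6.5, against 14.2 to 59.8 in SiHa at pH 7.4. The SiHa pH 7.4 replicates set apart for VIM had 582 and 966 of TCF4, 1390 and 1630 of FN1, and 3405 and 4734 of CDH1, and with all 20 libraries as labelled the interaction of TCF4 was 2.28 in place of -5.1. Summed mesenchymal markers were at 1136 to 3497 in SiHa at pH 6.5 and 3003 to 4328 in SiHa at pH 7.4, and their part in these results was not tested. The sum contains VIM, by which the SiHa pH 7.4 libraries kept were chosen. It was mostly COL3A1, at 981 to 2989 in SiHa at pH 6.5 and 2446 to 3541 in SiHa at pH 7.4. Of the list 8 were higher and 5 lower in HCT116 without HCT116 pH 6.5 replicate 1.

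**Figure D4:**
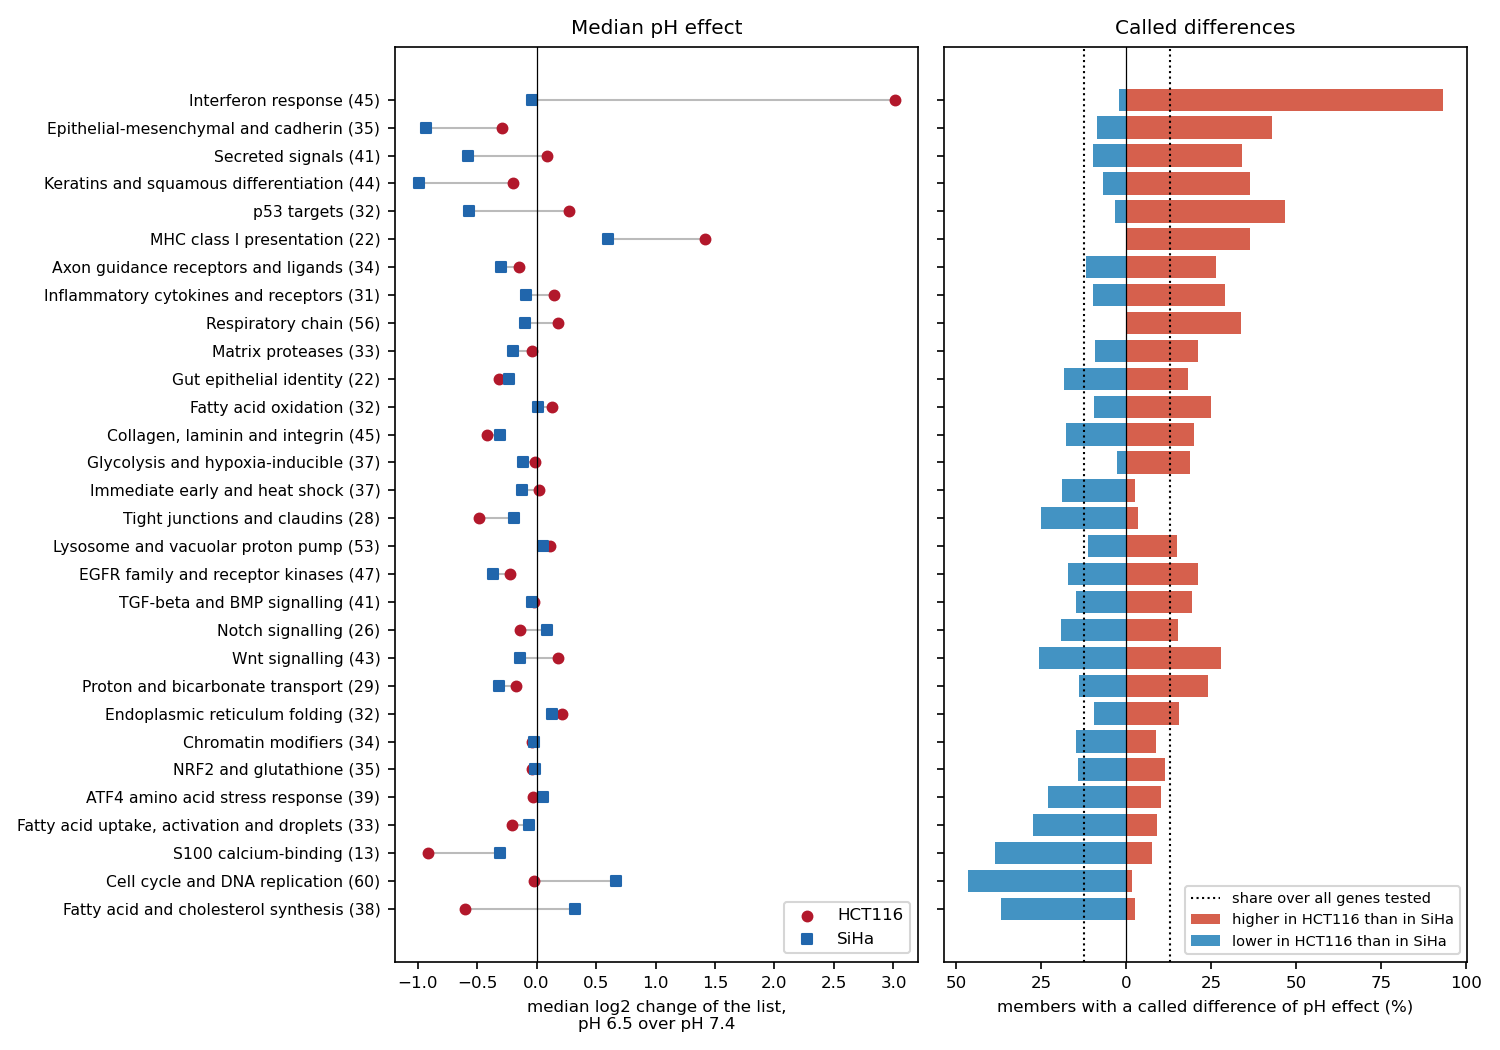
Left, median log2 change of pH 6.5 over pH 7.4 of each of the 30 function lists in HCT116 (circles) and SiHa (squares), with the number of genes tested in brackets. Right, share of the members whose pH effect was called higher (to the right) or lower (to the left) in HCT116 than in SiHa, with dotted lines at 12.8% and 12.3%, the shares over all genes tested.

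The remaining lists were mixed. Their counts, here and in the next paragraphs, are of interactions, and stand against 12.8% higher and 12.3% lower in HCT116 of all genes tested. Secreted signals were higher in HCT116 for 14 of 41 and lower for 4. Among them NPPC, a natriuretic peptide gene, had 6.87 and 12.6 normalised counts in HCT116 at pH 6.5, against 7.05 to 13.8 in HCT116 at pH 7.4, and 1.71 to 8.09 in SiHa at pH 6.5, against 77.7 to 102 in SiHa at pH 7.4. FST, which traps activin, rose by 3.81 in HCT116 and had an effect of 0.01 in SiHa, and BMP2 fell by 4.39 in HCT116 and had an effect of -0.77 in SiHa. Axon guidance genes were higher for 9 of 34 and lower for 4, with effects of PLXNB3, a semaphorin receptor, at 0.92 in HCT116 and -3.79 in SiHa, and of NRP2 at -0.45 and -4.88. Of 47 genes of the EGFR family and receptor kinases 10 were higher and 8 lower. In that list the ligand NRG1 had 391 and 468 normalised counts in HCT116 at pH 6.5, against 6.88 to 63.6 in HCT116 at pH 7.4, and the secreted IGFBP6 had effects of 1.52 and -2.31. The ephrin ligand EFNB2 had effects of -1.27 and 0.82. Only 8 secreted signals were higher in HCT116 without HCT116 pH 6.5 replicate 1, where the rises of FST and IGFBP6 (0.77) and the interaction of NRP2 were not called. Lower axon guidance genes numbered 2 without HCT116 pH 6.5 replicate 3. Lower members of the receptor kinase list numbered 5 without HCT116 pH 6.5 replicate 3 and 4 without SiHa pH 7.4 replicate 1, and the fall of EFNB2 in HCT116 was -0.52 and not called without HCT116 pH 6.5 replicate 3.

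Inflammatory genes were higher for 9 of 31 and lower for 3, with the receptor IL1R1 at -0.53 in HCT116 and 0.62 in SiHa and the chemokine CXCL1 at 2.01 and -0.83. CXCL11 was opposite as well, although its SiHa libraries held 0 reads at pH 6.5 and 4 at pH 7.4. Without replicate 1 of HCT116 at pH 6.5, 4 inflammatory genes were higher in HCT116, and the changes of CXCL1 (1.2) and IL1R1 in HCT116 were not called. TGF-beta and BMP genes were higher for 8 of 41 and lower for 6. Among these BAMBI, a decoy receptor, had 2980 and 5212 normalised counts in HCT116 at pH 6.5, against 551 to 736 in HCT116 at pH 7.4, and 309 to 419 in SiHa at pH 6.5, against 314 to 446 in SiHa at pH 7.4. Wnt genes were higher for 12 of 43 and lower for 11, Notch genes higher for 4 of 26 and lower for 5. Without HCT116 pH 6.5 replicate 1, 3 TGF-beta genes were lower and 2 Notch genes higher, and without replicate 3, 3 Notch genes were lower. RNF43, a ubiquitin ligase that removes Wnt receptors, had 4123 and 7528 normalised counts in HCT116 at pH 6.5, against 855 to 1853 in HCT116 at pH 7.4, and 86.2 to 116 in SiHa at pH 6.5, against 216 to 254 in SiHa at pH 7.4. SP5, a Wnt target, rose by 3.37 in HCT116, with an effect of -0.07 in SiHa, WNT7B had effects of 0.5 and -3.53, and the corepressor TLE1 had effects of -0.8 and 1.29, the first -0.33 and not called without HCT116 pH 6.5 replicate 3. The Wnt ligand WNT16 fell by 3.55 in HCT116, to 735 normalised counts on average at pH 6.5, against 8009 at pH 7.4, and its SiHa libraries held 5 reads at pH 6.5 and 0 at pH 7.4. WNT16 was among the HCT116-restricted genes used to check the libraries. Its high values in HCT116 at pH 7.4 and low values in SiHa at pH 6.5 follow from that choice.

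Collagen, laminin and integrin genes were higher for 9 of 45 and lower for 8. LAMA3, a laminin chain of the epithelial basement membrane, had 514 and 351 normalised counts in HCT116 at pH 6.5, against 1700 to 2268 in HCT116 at pH 7.4, and 1345 to 2755 in SiHa at pH 6.5, against 711 to 1055 in SiHa at pH 7.4. The integrin ITGB4, which binds such laminins, had effects of 0.88 in HCT116 and -2.03 in SiHa, and fibrillin, FBN1, of -1.4 and 2.08. Matrix proteases were higher for 7 of 33 and lower for 3, tight junction genes higher for 1 of 28 and lower for 7, and S100 genes higher for 1 of 13 and lower for 5. CLDN4, a claudin, had 5886 and 3576 normalised counts in HCT116 at pH 6.5, against 10371 to 20467 in HCT116 at pH 7.4, with an effect of 0.04 in SiHa. S100A4 fell by 2.89 ± 0.18 in HCT116 and by 0.78 ± 0.16 in SiHa. Gut epithelial genes were higher for 4 of 22 and lower for 4. Within them HNF4A, a transcription factor of gut and liver, had 14.9 and 7.98 normalised counts in HCT116 at pH 6.5, against 566 to 713 in HCT116 at pH 7.4, and MUC13, a membrane mucin, had effects of -4.48 in HCT116 and 2.61 in SiHa. Lower tight junction genes numbered 3 without HCT116 pH 6.5 replicate 1 and 4 without SiHa pH 7.4 replicate 1 or 5, and the interaction of CLDN4 was not called without HCT116 pH 6.5 replicate 3. With replicate 1 of HCT116 at pH 6.5 left out, 2 matrix proteases were higher and 5 lower in HCT116, 0 S100 genes were higher, and the changes of ITGB4 and FBN1 in HCT116 were not called. Lower matrix proteases numbered 5 without SiHa pH 6.5 replicate 5, and higher tight junction genes 2 without it or HCT116 pH 7.4 replicate 1. Higher gut genes numbered 2 without HCT116 pH 6.5 replicate 1 or SiHa pH 7.4 replicate 1.

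Proton and bicarbonate transport, the machinery closest to the treatment, was higher in HCT116 for 7 of 29 genes and lower for 4, a share of 37.9% called against 25.1% of all genes tested. CA11, a carbonic anhydrase relative without enzyme activity, had 1270 and 1264 normalised counts in HCT116 at pH 6.5, against 544 to 690 in HCT116 at pH 7.4, and 262 to 542 in SiHa at pH 6.5, against 819 to 1130 in SiHa at pH 7.4. CA2 had effects of 0.74 in HCT116 and -3.07 in SiHa, and CA12, an extracellular carbonic anhydrase, of 1.03 and 2.56. The endosomal exchanger SLC9A9 had effects of 1.57 and -3.76, and the first of these was not called without either HCT116 pH 6.5 library. Lysosome and vacuolar pump genes were higher for 8 of 53 and lower for 6, near the 12.8% and 12.3% of all genes tested. The pump subunits ATP6V1G1 and ATP6V1F were opposite, with effects of 0.37 and 0.54 in HCT116 and -0.5 and -0.48 in SiHa. The rises of ATP6V1G1, ATP6V1F (0.24) and CA12 in HCT116 were not called without HCT116 pH 6.5 replicate 1, and 5 lysosome genes were higher in HCT116. Lower lysosome genes numbered 3 without HCT116 pH 6.5 replicate 3 or SiHa pH 7.4 replicate 1.

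Glycolysis and hypoxia genes were higher for 7 of 37 and lower for 1, endoplasmic reticulum folding genes higher for 5 of 32 and lower for 3, NRF2 and glutathione genes higher for 4 of 35 and lower for 5, and ATF4 genes higher for 4 of 39 and lower for 9. Called shares were 21.6%, 25%, 25.7% and 33.3% in that order, against 25.1% of all genes tested. For the immediate early and chromatin lists below they were 21.6% and 23.5%. Apart from the ATF4 list, these shares were near or under that of all genes. Without HCT116 pH 6.5 replicate 1, 4 glycolysis genes, 1 folding gene, 1 NRF2 gene and 0 ATF4 genes were higher in HCT116, and 1 folding gene was lower. Higher folding genes numbered 2 without SiHa pH 7.4 replicate 1 or 5, and the lower glycolysis gene was not called in 10 of the 15 fits that left out 1 library. Lower NRF2 genes numbered 2 without HCT116 pH 6.5 replicate 3, and lower ATF4 genes 4 without it, where the fall of PHGDH in HCT116 was -0.39 and not called. The stress gene DDIT4 had 1330 and 1403 normalised counts in HCT116 at pH 6.5, against 825 to 1560 in HCT116 at pH 7.4, and 932 to 3128 in SiHa at pH 6.5, against 4686 to 7345 in SiHa at pH 7.4. PHGDH, the first enzyme of serine synthesis, had 2587 and 1461 normalised counts in HCT116 at pH 6.5, against 3081 to 3678 in HCT116 at pH 7.4, and 8585 to 12638 in SiHa at pH 6.5, against 3811 to 4919 in SiHa at pH 7.4. Immediate early and heat shock genes were higher for 1 of 37 and lower for 7, with the near-identical HSPA1A and HSPA1B both at -0.67 in HCT116 and at 0.59 and 0.56 in SiHa. The fall of HSPA1A in HCT116 and the interaction of the 1 higher gene were not called without HCT116 pH 6.5 replicate 1. Chromatin modifiers were higher for 3 of 34 and lower for 5. HDAC9, a histone deacetylase, had 870 and 1615 normalised counts in HCT116 at pH 6.5, against 74.9 to 102 in HCT116 at pH 7.4, and 29.4 to 55.5 in SiHa at pH 6.5, against 30.5 to 39.8 in SiHa at pH 7.4. The DNA methyltransferase DNMT3B had 466 and 386 normalised counts in HCT116 at pH 6.5, against 982 to 1709 in HCT116 at pH 7.4, with an effect of -0.05 ± 0.23 in SiHa. Lower chromatin modifiers numbered 3 without HCT116 pH 6.5 replicate 3 or SiHa pH 7.4 replicate 1.

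Among the genes named from those that fell only in HCT116, 5 encode zinc finger proteins. ZFP42, a zinc finger protein known from embryonic stem cells, had 1.15 and 2.28 normalised counts in HCT116 at pH 6.5, against 110, 126, 301, 292 and 450 in HCT116 at pH 7.4, and 0 reads in SiHa, so that its interaction of -6.4 ± 0.62 equals the change in HCT116 and was not called by edgeR. ZNF234 had 0 reads in both HCT116 libraries at pH 6.5, against 94.3 to 112 normalised counts in HCT116 at pH 7.4, at least 30.3-fold lower. In SiHa ZNF234 had 200 to 213 at pH 6.5, against 256 to 294 at pH 7.4, an effect of -0.39 ± 0.15. ZNF502 and ZNF615 likewise had 0 reads in HCT116 at pH 6.5, at least 29.8-fold and 13.4-fold lower than at pH 7.4, and ZNF550 had 1 read. Of 474 tested genes with numbered ZNF symbols, which encode zinc finger proteins, 21 (4.43%) fell only in HCT116, where 1.57% of all genes tested did, and 4 rose only in HCT116. The interaction was lower for 73 of them (15.4%) and higher for 42, with a median of -0.1. This grouping by symbol was chosen after the values were seen. GNA15, a G protein subunit, had an effect of -5.13 ± 0.26 in HCT116 and of 0.08 in SiHa.

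Among the genes that rose only in HCT116 outside the interferon list, NR5A2, a nuclear receptor of gut and liver, had 1329 and 2988 normalised counts in HCT116 at pH 6.5, against 35.0 to 74.5 in HCT116 at pH 7.4, and no more than 1.40 in any SiHa library, and its interaction was not called by edgeR. TSPAN5-DT, a divergent transcript, had 652 and 2295 normalised counts in HCT116 at pH 6.5, against 43.6 to 75.5 in HCT116 at pH 7.4. SiHa stayed under a mean of 10 at both pH values for 52 of the 318 genes that rose only in HCT116 and for 61 of the 328 that fell only in HCT116. For such genes the interaction is close to the change in HCT116 alone.

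**Figure D5:**
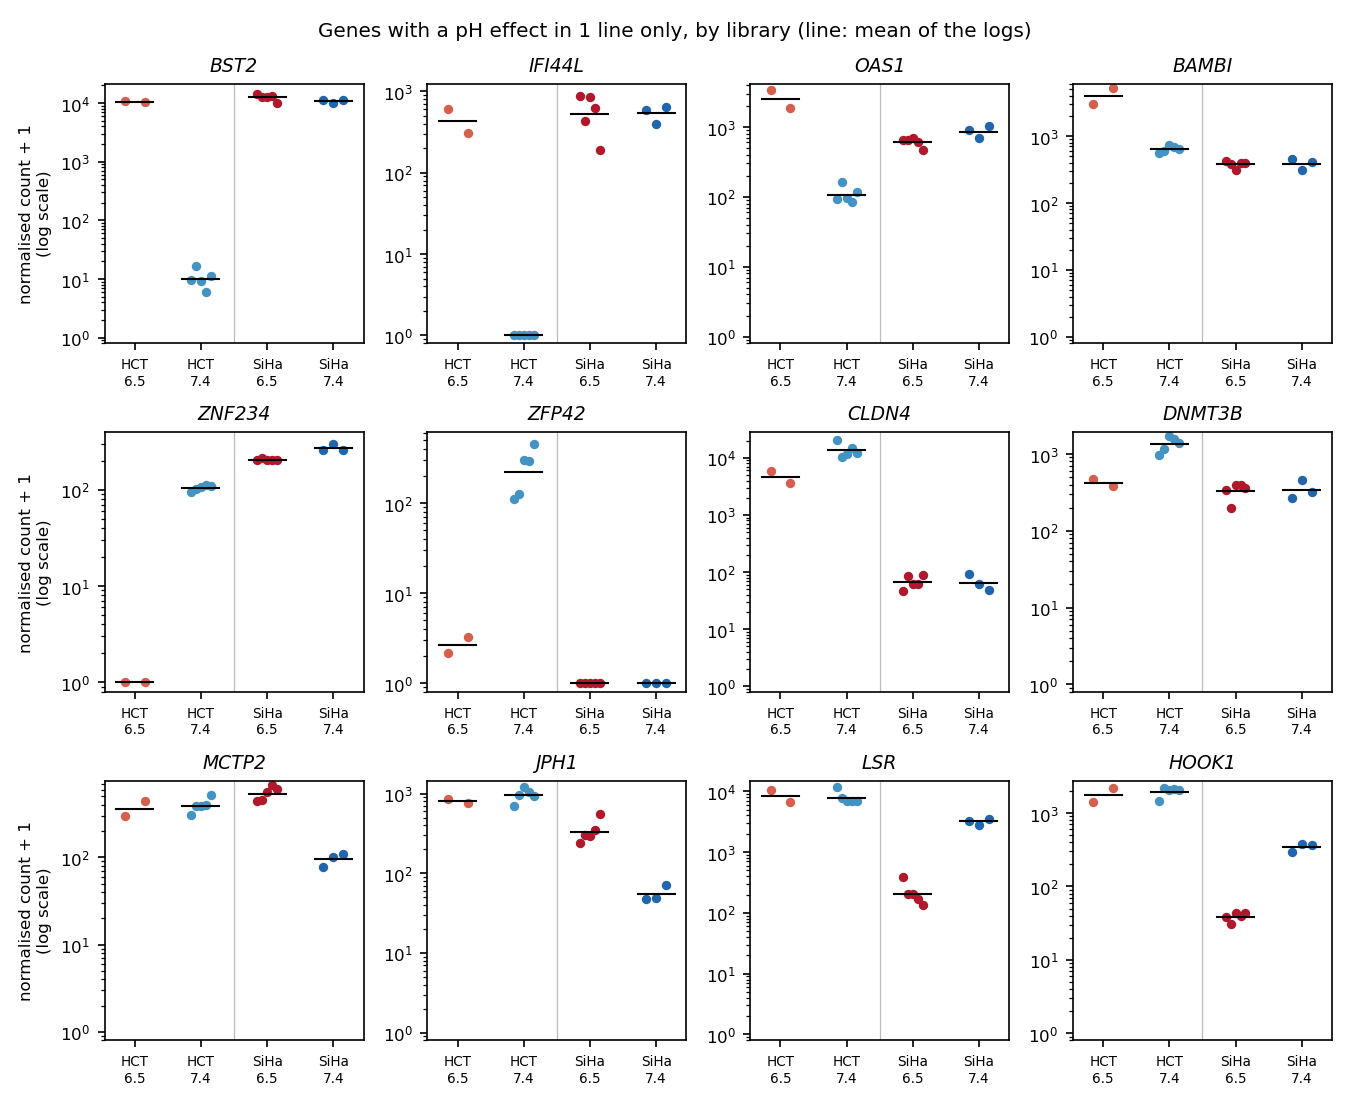
Normalised counts plus 1 (log scale) by library for 12 genes whose pH effect was called in 1 line only, in HCT116 at pH 6.5 (n = 2), HCT116 at pH 7.4 (n = 5), SiHa at pH 6.5 (n = 5) and SiHa at pH 7.4 (n = 3), with a line at the mean of the logs. The first 8 panels changed in HCT116 only and the last 4 in SiHa only.

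Genes that fell only in SiHa included a junction protein, a calcium pump and a microtubule adaptor. LSR, a protein of tricellular junctions that also takes up lipoproteins, had 10639 and 6685 normalised counts in HCT116 at pH 6.5, against 6809 to 11774 in HCT116 at pH 7.4. In SiHa LSR had 394, 200, 204, 167 and 134 at pH 6.5, against 3262, 2826 and 3526 at pH 7.4, a change of -3.96 ± 0.27. HOOK1, a microtubule adaptor, had 1432 and 2206 normalised counts in HCT116 at pH 6.5, against 1438 to 2200 in HCT116 at pH 7.4, and 29.4 to 42.7 in SiHa at pH 6.5, against 289 to 380 in SiHa at pH 7.4. The calcium pump gene ATP2A3 had an effect of 0.05 ± 0.25 in HCT116 and -3.24 ± 0.22 in SiHa, and DOCK3, an exchange factor of Rac, of -0.1 ± 0.18 and -3.37 ± 0.16. The membrane protein genes ELAPOR2 and TMEM98 had effects of -3.84 ± 0.34 and -3.76 ± 0.26 in SiHa and of 0.13 and 0.18 in HCT116. KCNK15, a potassium channel, fell by 3.36 in SiHa and had 0 reads in HCT116.

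The genes that rose only in SiHa included MCTP2, a calcium-binding membrane protein, with 295 and 441 normalised counts in HCT116 at pH 6.5, against 305 to 513 in HCT116 at pH 7.4, and 437 to 674 in SiHa at pH 6.5, against 77.4 to 107 in SiHa at pH 7.4. JPH1, a junctophilin that joins the plasma membrane to the endoplasmic reticulum, had effects of -0.24 ± 0.27 in HCT116 and 2.59 ± 0.23 in SiHa. NOD2, a sensor of bacterial peptidoglycan, had effects of -0.19 ± 0.27 and 2.35 ± 0.23, with at most 15.2 normalised counts in SiHa, and PPP4R4, a phosphatase subunit, of -0.17 ± 0.32 and 2.2 ± 0.28. DPT, MAF and FLRT2, which encode a matrix protein, a transcription factor and an adhesion protein, rose by 3.34, 2.98 and 2.64 in SiHa and had 0 reads in HCT116. The interactions of DPT, MAF, FLRT2 and KCNK15 equal the change in SiHa and were not called by edgeR or DESeq2. HCT116 stayed under a mean of 10 at both pH values for 20 of the 151 genes that rose only in SiHa and 19 of the 218 that fell only in SiHa.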

How the data were processed

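RNA was extracted with Trizol and sequenced, per the labels' protocols. Per the submitters' processing notes, the tools were STAR 2.6.1d, DESeq2 1.22.2, Trimmomatic 0.38, bcl2fastq 2.20 and FastQC, with the build GRCh37 and no roles listed. Which program counted reads, with which strand setting and annotation, is not given in the sources used here. Values deposited by the authors were normalised counts (signal), 1 column per library, for 38122 Ensembl genes, of which 35466 were matched to a symbol. Each deposited signal value was a whole multiple of 1 step per library within 0.01 of a step (100% of values), so whole reads were recovered and the count tests were run on them as alternatives.

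The main fit was limma 3.58.1 with an intensity trend in R 4.3.3 on log2(normalised count + 1), with 4 groups in 1 fit of 15 libraries. Alternatives were edgeR 4.0.16 (quasi-likelihood) and DESeq2 1.42.0 on the recovered reads, pseudocounts of 0.5 and 5, other filters, scalings and variance models, the libraries as labelled, and each library left out. Plots were drawn with matplotlib 3.10.9, and tables built with pandas 2.3.3, scipy 1.17.1 and numpy 2.4.6 in Python 3.11.15. The members, function lists and tests were chosen with earlier results of these data known. The fit was tested on simulated data.

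Genes were named by rule: up to 12 opposite genes per direction and up to 7 per class changed in 1 line, by size of interaction, with a mean of at least 100 in the highest group and no overlap between pH groups, and up to 4 called members per list with a mean of at least 50. Clone names, genes of the Y chromosome, VIM and genes used to check the libraries were passed over. The rule gave 155 genes, not all of them described, and 43 more, such as ISG15, FAS, FN1, FOXM1, CDH1, FASN, ITGB4 and KRT5, were chosen after their values were seen. Of the 43, KRT5 and WNT16 had been used to check the libraries. Some genes are not reported here. Promoters came from RefSeq on GRCh38.p14 and no coordinate was carried between builds.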

Additional observations from a re-analysis of the deposited data

Results flagged for a closer look

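The difference between the pH effects of the lines, tested as an interaction by limma, was called for 2670 genes higher and 2576 lower in HCT116.

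In groups of 5 libraries, 1 library stood far from the others for 26 of 396 gene and group pairs, where chance gives about 1 in 20, and 9 of the 26 were in HCT116 pH 7.4 replicate 1. In that replicate LSR had 11774 normalised counts, HOOK1 1438, TOP2A 4681, BTG2 3464, CRB3 949, ST14 12441, ATP5MC1 1148, the heat shock gene HSPA2 307 and CDH1 4515. In HCT116 pH 7.4 replicate 3, STC1 had 1.74 normalised counts, DGKB 17.4, the Notch ligand gene DLL1 213, IL1R1 464 and CXCL11 0.871. In HCT116 pH 7.4 replicate 6, FNDC1 had 1.23 and NPR3 17.2 normalised counts.

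In SiHa pH 6.5 replicate 4, SEMA3A, the glucose transporter gene SLC2A3 and CCND2 each had 1.4 normalised counts, a single read, with 0 in the other 4 libraries. In the same library ICAM1 had 3194, DNMT3B 199 and ATP5MC1 2541. In SiHa pH 6.5 replicate 1, MARVELD3, a tight junction gene, had 55.3 normalised counts and SERPINB2 1.35. In SiHa pH 6.5 replicate 7 TENM3 had 2.56, and in replicate 5 BAMBI had 309.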

How the results depend on the processing

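The main limits are the 2 libraries of HCT116 at pH 6.5 and the choice of libraries. Of the interactions of 198 genes, chosen by the rule or added later, direction was the same under each alternative that gave them a value except all 20 libraries as labelled, where 19 turned, 83 lost the call, 94 stayed on their side of the threshold, TRIM22 gained the call and CCND2 had no value. A minimum mean of 50 left out 4 of these genes, and leaving out HCT116 pH 6.5 replicate 1 left out CCND2 and SERPINB2. Low genes are limited by depth, since a library's floor of 3 reads lies at 2.56 to 4.20 normalised counts.

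No pairing is given by the labels: same-numbered libraries deviated together with correlations of 0.146 and 0.0402 in HCT116 and 0.24, 0.0471 and 0.0598 in SiHa. With the replicate block, 1193 genes were higher and 1268 lower in HCT116, 96 and 119 were opposite in the 2 directions, 187 rose only in HCT116 and 63 rose only in SiHa, and 31 of the 198 interactions lost the call. In that fit 40 interferon genes were higher and 1 lower, and 9 p53 targets were higher and 1 lower. With replicate 1 as the only SiHa pH 7.4 library, 1734 genes were higher in HCT116, 105 and 115 were opposite, 109 rose and 141 fell only in HCT116, and 273 rose only in SiHa. With all 20 libraries as labelled, 136 genes rose in HCT116 and fell in SiHa, 55 rose only in SiHa and 60 fell only in SiHa. With a pseudocount of 5, 497 genes rose and 497 fell only in HCT116, and 228 rose and 378 fell only in SiHa. With 1 variance per group, 100 rose and 139 fell only in SiHa. The cause of these shifts was not tested.

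Leaving out 1 library at a time gave 1777 to 3139 genes higher and 1878 to 3018 lower in HCT116. It gave 153 to 355 and 142 to 326 opposite genes, 240 to 408 and 253 to 408 genes that rose and fell only in HCT116, and 79 to 203 and 99 to 277 that rose and fell only in SiHa.

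With all 20 libraries as labelled the interaction turned to 0.38 for FZD8, 0.78 for ADAMTSL3, 1.49 for MAF, 1.75 for FLRT2, 0.67 for BMP2, -0.00023 for MCOLN3, 0.6 for MITF, -0.43 for SLC2A3, 2.28 for TCF4, 0.74 for JAM2, -0.07 for MARVELD3, 0.13 for COL12A1, 1.97 for TGFB2, -0.51 for NOTCH3, 0.04 for HSPA1A, -0.07 for HSPB1, 0.02 for IL1R1, -0.38 for TM7SF2 and 1.08 for GBP2. The SiHa pH 7.4 replicates set apart had 124 and 61.7 normalised counts of MAF and 71.4 and 110 of FLRT2.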
